A study of Mus musculus with 12 samples.

Results

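Palbociclib alone was compared with vehicle in mouse tumors, using the 3 palbociclib and 3 vehicle tumors of a series of 12 bulk RNA-sequencing libraries. All tumors grew in C57BL/6 mice from LLC1-shLkb1 cells, a Lewis lung carcinoma line that carries a hairpin RNA against Lkb1 (gene symbol Stk11), so vehicle and treated tumors share the knockdown. The paper implanted these cells under the skin and a luciferase form of them in the left chest. Its sequencing methods do not name the site. Palbociclib, an oral inhibitor of the kinases CDK4 and CDK6, was given on the first days of each weekly cycle, and the vehicle mice received a control immunoglobulin G. Whether the palbociclib mice also received that immunoglobulin, and how long after the last dose these tumors were taken, is not stated in the sources used here. For tumors taken for lymphocytes or staining, the methods give collection 2 weeks after treatment. The other 6 tumors, from mice given anti-PD-1 antibody or palbociclib with anti-PD-1 (the combination), served for the estimate of the spread and for 1 comparison. The comparison asks which transcriptional programs and single genes differ in a whole tumor after palbociclib without an immune checkpoint antibody. Each tumor is a separate sample, and the p-values measure the spread between 3 tumors per arm.

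Expression is given as FPKM, a fragment count scaled to transcript length and to the mapped fragments of the library. Of 34678 gene symbols, 21794 were above 0 in at least 1 of the 6 tumors, and the 11255 that averaged 1 FPKM or more in these 6 were tested on log2(FPKM + 0.1). Differences are palbociclib minus vehicle on that scale, which understates the change of low genes. The steps of low FPKM values gave an estimated 14900000 to 20300000 fragments per tumor.

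The labels name the tissue LKB1-deficient lung adenocarcinoma. Nkx2-1 and Sftpc, which define alveolar lung epithelium, were listed at 0 in all 6 tumors, and Epcam lay between 0.0592 and 1.81 FPKM. Krt8, a keratin of simple epithelia, was present at 84.1 to 152 FPKM, and 2 of 10 epithelial markers passed the filter. The other was Napsa, a further lung adenocarcinoma marker, which lay above vehicle without overlap (log2 difference 0.66). Stk11 itself (chr10:80115803-80130682, GRCm38, plus strand) measured 10.6, 11.5 and 9.74 FPKM in Vehicle 1, 2 and 3 and 9.72, 9.51 and 10.3 FPKM in Palbociclib 1, 2 and 3. These values overlapped (log2 difference -0.11, SE 0.13). No tumor without the hairpin was analysed here, so the level says nothing of the knockdown.

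As background, cyclin D with CDK4 or CDK6 phosphorylates the retinoblastoma protein RB and so releases E2F factors, which drive the genes of DNA replication and of the G1 to S transition. Palbociclib blocks that step while it is bound. Type I interferons act through receptor-bound kinases on a transcription factor complex that binds the interferon-stimulated response element in front of antiviral genes, and interferon gamma acts through its own receptor and raises guanylate-binding proteins and the MHC pathway. Cells make interferons after sensors such as MDA5 (Ifih1), RIG-I (Ddx58), TLR3 and cGAS meet nucleic acids.

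The sequences below show promoter elements of some of the interferon and replication genes named in the results. They are 60 bases taken directly from the stretch before the RefSeq start site (GRCm38.p6), written 5′ to 3′ on the strand of the gene, with a match to the searched element in capitals. The first 5 belong to genes that rose with palbociclib and hold the interferon-stimulated response element, searched on both strands as GAAA, any 2 bases and GAAA.
Trim30a (chr7:104465195-104465254, minus strand): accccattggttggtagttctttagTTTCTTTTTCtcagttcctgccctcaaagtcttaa
Ddx60 (chr8:61928027-61928086, plus strand): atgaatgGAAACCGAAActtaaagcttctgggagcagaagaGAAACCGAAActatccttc
Gbp3 (chr3:142559980-142560039, plus strand): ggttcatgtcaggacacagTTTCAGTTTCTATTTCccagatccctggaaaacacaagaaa
Ifi203 (chr1:173942493-173942552, minus strand): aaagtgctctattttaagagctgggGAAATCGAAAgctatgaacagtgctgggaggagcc
Oas3 (chr5:120777700-120777759, minus strand): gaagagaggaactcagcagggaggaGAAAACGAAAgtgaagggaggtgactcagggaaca
The other 3 belong to replication genes whose 3 palbociclib tumors lay above the 3 vehicle tumors and hold an E2F element, searched on both strands as TTTCGCGC or TTTGGCGC.
Mcm5 (chr8:75109334-75109393, plus strand): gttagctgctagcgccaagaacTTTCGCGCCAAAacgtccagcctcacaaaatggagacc
Orc1 (chr4:108579394-108579453, plus strand): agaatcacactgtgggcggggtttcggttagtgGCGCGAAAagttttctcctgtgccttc
Rfc3 (chr5:151651209-151651268, minus strand): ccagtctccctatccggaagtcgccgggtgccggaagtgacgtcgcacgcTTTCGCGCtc

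Of the 27 genes that rose, 20 matched a promoter in the RefSeq table (250 bases before to 50 after the start), and 6 of these (30%) held the interferon element, the 5 above and Ifih1, whose match follows the start site. The element was found in 3.99% of all 27025 genes with a promoter and in 3.79% of the 8380 tested genes with one. It was found in 15 of 35 type I interferon-stimulated genes (42.9%) and in 11 of 19 interferon gamma genes (57.9%). The E2F element was found in 0.929% of all genes with a promoter and in 1.9% of the tested genes with one. It was found in 13 of 43 DNA replication genes (30.2%) and in 0 of the 20 genes that rose. A match is a description of the letters in this window, and none of the matches was tested for binding.

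Some tumors stand apart from the rest of their arm. Fat genes summed to 18.1, 16.2 and 15.9 FPKM with vehicle and to 558, 40.4 and 66.5 FPKM with palbociclib, so all 3 palbociclib tumors lay above vehicle and Palbociclib 1 far above. Keratinocyte and hair follicle genes summed to 473 FPKM in Palbociclib 2 and to at most 2.70 FPKM elsewhere. Skeletal muscle genes summed to 228 FPKM in Palbociclib 3, 74.8 FPKM in Vehicle 1 and 1.30 to 8.85 FPKM in the others. Vehicle 3 held neutrophil genes at a sum of 820 FPKM, against 34.6 to 127 FPKM in the others. Adipoq, the fat hormone adiponectin, and Krt14, a basal keratin, show the size of this: Adipoq read 0.0807, 0 and 0 FPKM with vehicle and 34.6, 0.757 and 2.34 FPKM with palbociclib, and Krt14 was listed at 0 in the 3 vehicle tumors and at 0.0702, 178 and 0.378 FPKM in the palbociclib tumors. Of the 20 largest positive differences, 8 were genes of the fat, skin or muscle lists, and 0 of the 20 passed the test. The part of these tissues in other results was not tested.

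Across the transcriptome, 27 genes rose (0.24% of those tested) and 2 fell (0.0178%) at an adjusted p-value under 0.05 in limma with Benjamini-Hochberg adjustment. A further measure, used for lists below, is whether the 3 palbociclib tumors all lie above or all lie below the 3 vehicle tumors without overlap. All 3 lay above for 1470 genes (13.1%) and below for 818 (7.27%), so 64.2% of these genes were higher. After quantile normalization the same split was 1025 higher and 1348 lower (43.2% higher). At an unadjusted p under 0.05 in limma, 1120 of the 11255 genes were higher and 562 lower. The median difference over all genes was 0.05. Of 12 fat genes, all had a positive difference (median 3.02) and 10 lay above without overlap (83.3%). Without Palbociclib 1 the median was 2.17 and 10 lay above. Leaving out a tumor makes separation easier for any gene: without Vehicle 1, 28.1% of all genes lay above and 15.8% below, and without Palbociclib 1, 21.5% and 12.8%.

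The number of genes that rose depends strongly on single tumors, although their direction does not. It was 1 without Vehicle 2, Palbociclib 1 or Palbociclib 3, 5 without Vehicle 3, and 56 without Palbociclib 2. Leaving out a tumor of the other arms, which enter only the spread, gave 2 without Anti-PD-1 3 or Combination 1, 9 without Anti-PD-1 2, 13 without Combination 3, 44 without Anti-PD-1 1 and 52 without Combination 2. With the 6 tumors fitted alone, 1 gene rose (Gbp9) and 1 fell (Ctgf).

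**Figure D1:**
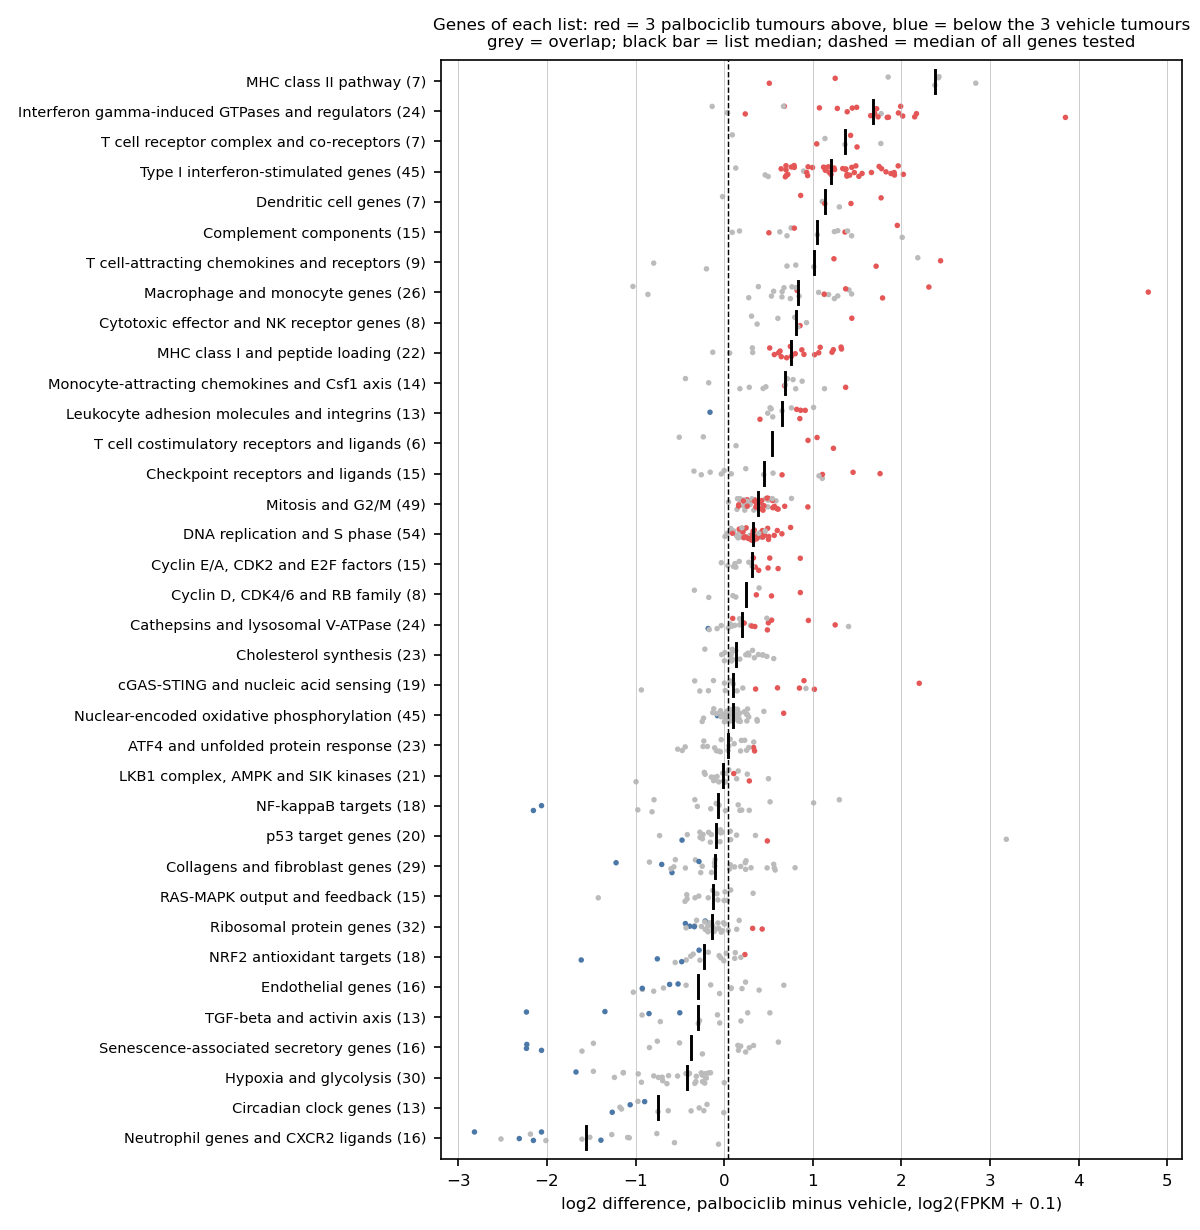
Difference between palbociclib and vehicle for each tested gene of the program lists (x axis, log2(FPKM + 0.1), number tested in brackets), 1 point per gene. The CDK inhibitor and B cell lists, with few tested genes, are left out. Points are red where the 3 palbociclib tumors lie above and blue where they lie below the 3 vehicle tumors. A black bar marks the list median, and the median of all genes is dashed. Red points fill the interferon, MHC class I and replication lists, as in the 41 of 45 interferon-stimulated genes, while neutrophil and clock genes lie left of 0.

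Among the lists, that of type I interferon-stimulated genes held the most genes that rose. The lists were written with earlier results of these data known, so they describe the genes and test nothing. Of the 27 genes that rose, 17 belonged to the lists of type I interferon-stimulated genes (14), interferon gamma genes (2) or nucleic acid sensing (1). The lowest p-value among all genes was that of Lgals3bp, a secreted galectin-binding glycoprotein (chr11:118392751-118402092, minus strand). It measured 19.3, 22.7 and 25.7 FPKM with vehicle and 92.2, 64.5 and 85.2 FPKM with palbociclib. The lowest palbociclib tumor thus stood well above the highest vehicle tumor. Lgals3bp rose by 1.83 on the log2 scale (SE 0.16, 95% interval 1.48 to 2.17, limma adjusted p = 0.00198), and it was the single gene called in each of the 12 fits that left out 1 tumor.

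The antiviral enzymes followed. Oas3, which makes the oligoadenylate that activates RNase L, read 3.82, 4.60 and 6.56 FPKM with vehicle and 24.8, 10.3 and 17.8 FPKM with palbociclib. Oas3 rose by 1.75 (SE 0.30, limma adjusted p = 0.0461) without overlap, Palbociclib 2 being the lowest of its arm. Oasl2, of the same family, read 6.54, 6.88 and 9.02 FPKM against 24.4, 14.8 and 25.5 FPKM. Cmpk2, a mitochondrial nucleotide kinase, read 9.04, 9.17 and 11.8 FPKM against 36.7, 19.2 and 45.0 FPKM. Both rose, Oasl2 by 1.49 (limma adjusted p = 0.0285) and Cmpk2 by 1.66 (limma adjusted p = 0.0487), and again Palbociclib 2 was lowest. Ifit2, which binds foreign RNA, stood within 10.9 to 11.5 FPKM in the vehicle tumors and reached 25.2, 20.3 and 36.4 FPKM with palbociclib (limma adjusted p = 0.0345). Members of the Oas and Trim30 families share sequence with close paralogs, and how reads were divided between them is not given in the sources used here.

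Regulators of the same system were among the genes that rose. Trim30a, a Trim-family restraint on innate signaling, rose by 1.37, Parp14 and Parp9, which modify proteins with ADP-ribose, rose by 1.34 and 0.93, and Uba7, the activating enzyme for the ubiquitin-like protein ISG15, rose by 0.95. Uba7 was 2.63, 2.76 and 2.64 FPKM with vehicle and 4.77, 5.02 and 6.05 FPKM with palbociclib, so its arms were tight and separate. Rtp4 (1.24), Xaf1 (1.18) and the nuclear body gene Sp100 (1.15) complete the list's 14 members that rose, together with Dhx58 and Ifih1 below.

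The rest of the list moved in the same direction with less precision. Of 46 type I interferon-stimulated genes, 45 passed the filter and all 45 had a positive difference, with a median of 1.21 against 0.05 for all genes. The palbociclib tumors lay above the vehicle tumors without overlap in 41 of 45 (91.1%, against 13.1% of all genes), and in 41 to 44 when any of the 6 tumors was left out. A further 20 members had an adjusted p between the threshold and 0.10. Isg15, the ubiquitin-like modifier, is one: it read 49.5, 35.2 and 65.8 FPKM against 182, 92.5 and 274 FPKM (log2 difference 1.78, limma adjusted p = 0.0758). Irf7, the factor that amplifies interferon production, read 7.29, 7.39 and 7.26 FPKM against 26.6, 12.8 and 29.9 FPKM (log2 difference 1.56, limma adjusted p = 0.0567). Ifitm3, which blocks viral entry, was the most abundant, at 325, 319 and 447 FPKM against 631, 530 and 716 FPKM. None of these 3 genes overlapped between arms. Trim25 (0.13) was the smallest difference, with overlap.

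The mean level of the list per tumor was 3.16, 3.13 and 3.35 with vehicle and 4.54, 3.94 and 4.77 with palbociclib (log2 scale). Palbociclib 2 was the lowest palbociclib tumor for 43 of 45 members and for 24 of the 27 genes that rose. That tumor also held the keratinocyte genes, whose part in these values was not tested. The interferon genes Ifnb1 and Ifng were under the filter, at 0 to 0.241 FPKM and 0 to 0.950 FPKM, too low for a comparison. In bulk tissue, a change in the number of cells of a type and a change in RNA per cell cannot be told apart. Common leukocyte genes summed to 139, 92.5 and 89.9 FPKM with vehicle and to 147, 214 and 189 FPKM with palbociclib, and their part in the result was not tested.

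**Figure D2:**
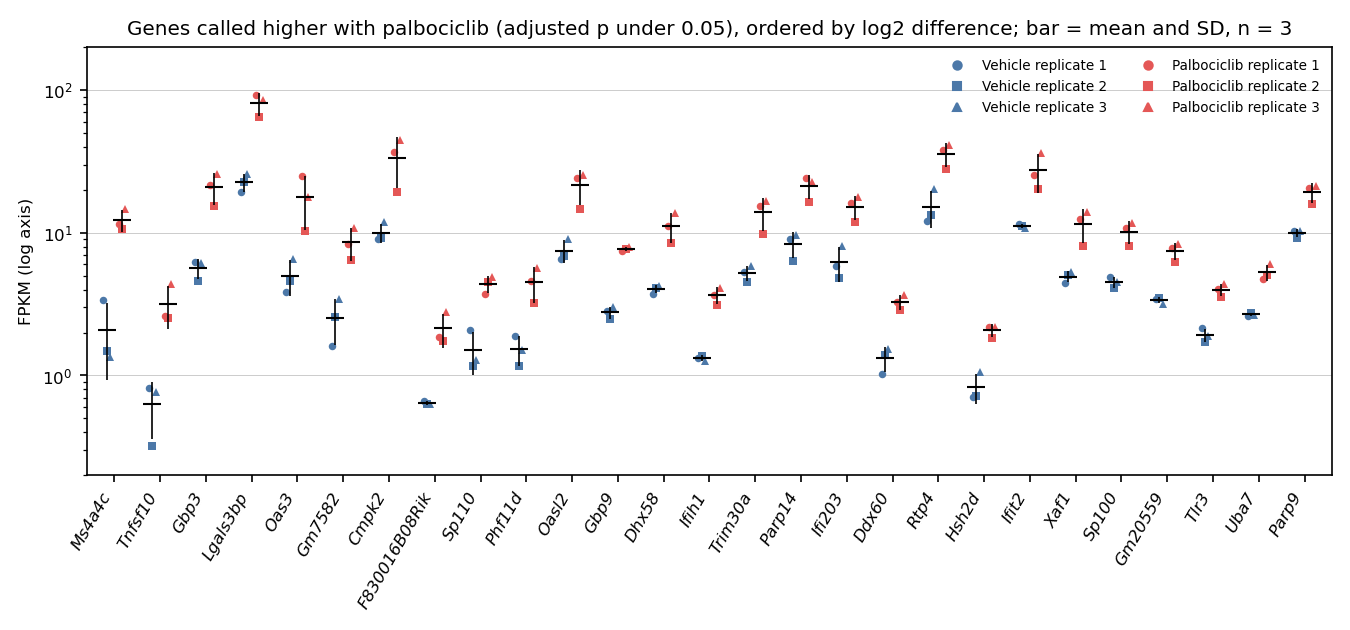
FPKM on a log axis of the 27 genes that rose with palbociclib, ordered by log2 difference, 1 point per tumor, with the mean and SD of each arm of 3 as a bar. In all 27 genes the palbociclib points lie above the vehicle points, from 0.319 to 4.38 FPKM for Tnfsf10 up to 19.3 to 92.2 FPKM for Lgals3bp.

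The 10 genes that rose outside the lists included the largest changes. Ms4a4c, a tetraspan membrane protein of leukocytes (chr19:11404770-11427246, plus strand), read 3.38, 1.49 and 1.35 FPKM with vehicle and 11.5, 10.5 and 14.6 FPKM with palbociclib, without overlap. Its rise of 2.61 (SE 0.45, limma adjusted p = 0.0496) is a 6.09-fold difference and stands close to the threshold. Tnfsf10, the death ligand TRAIL, read 0.816, 0.319 and 0.762 FPKM against 2.62, 2.51 and 4.38 FPKM, a rise of 2.20 (SE 0.35, limma adjusted p = 0.0345) that rests on about 977 fragments over the 6 tumors. Sp110 and Gm7582 (rises of 1.504 and 1.74) lie in the chromosome 1 cluster with Sp100 and may share reads with it. Phf11d rose by 1.49 and F830016B08Rik, a gene of the interferon-inducible GTPase type, by 1.56. The remaining 4, named for completeness, are Ddx60 (1.26), a helicase linked to RIG-I, Ifi203 (1.29), of the HIN-200 family of DNA-binding proteins, Hsh2d (1.24) and Gm20559 (1.11).

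The RNA sensor genes Ifih1, Dhx58 and Tlr3 rose, while Ddx58 and most of the cGAS-STING list did not pass the test. Ifih1, which encodes the double-stranded RNA sensor MDA5, read 1.34, 1.38 and 1.26 FPKM with vehicle and 3.67, 3.14 and 4.13 FPKM with palbociclib. It rose by 1.39 (SE 0.19, limma adjusted p = 0.0285), with a vehicle SD of 0.0567 FPKM. Dhx58, which encodes the related sensor LGP2, rose by 1.42 from 4.03 ± 0.253 to 11.1 ± 2.61 FPKM (SD, n = 3). Tlr3, the endosomal double-stranded RNA receptor, read 2.14, 1.71 and 1.90 FPKM against 4.01, 3.57 and 4.36 FPKM and rose by 1.02 (SE 0.16, limma adjusted p = 0.0315). Ddx58, which encodes RIG-I, read 4.60, 5.49 and 6.45 FPKM against 13.2, 7.44 and 13.5 FPKM (log2 difference 0.996, limma adjusted p = 0.0954). None of these 4 genes overlapped between the arms.

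Of 19 tested genes of the nucleic acid sensing list, Tlr3 alone passed and the median was 0.10. In all, 6 lay above vehicle without overlap (31.6%, against 13.1% of all genes). Cytosolic DNA sensing was measured by Mb21d1 (cGAS), at 1.25, 0.758 and 0.881 FPKM against 1.995, 1.65 and 1.70 FPKM (log2 difference 0.85, limma adjusted p = 0.130), and by Tmem173 (STING), at 27.8, 20.1 and 23.8 FPKM against 28.2, 31.0 and 31.8 FPKM (log2 difference 0.35). Their kinase Tbk1 differed by 0.08 with overlap. Trex1, the DNase that degrades cytosolic DNA, read 3.74, 3.94 and 5.49 FPKM against 12.9, 11.2 and 3.95 FPKM, so Palbociclib 3 lay among the vehicle tumors.

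Interferon gamma genes and antigen presentation were higher as groups, with few single genes past the test. Of 24 tested interferon gamma genes, Gbp3 and Gbp9 rose and 19 lay above vehicle without overlap (79.2%, against 13.1% of all genes). The median was 1.68, falling to 1.28 with a pseudocount of 1 because several members are low. Gbp3, a guanylate-binding protein (chr3:142560026-142573209, plus strand), read 6.21, 4.60 and 6.10 FPKM against 21.6, 15.4 and 25.6 FPKM (log2 difference 1.85, limma adjusted p = 0.0315). Gbp9 read 2.81, 2.47 and 3.01 FPKM against 7.41, 7.74 and 7.89 FPKM (log2 difference 1.44, limma adjusted p = 0.0428). Both arms of Gbp9 were tight, the SDs being 0.274 and 0.244 FPKM. The more abundant Gbp2 had a similar difference of 1.84 from 43.8, 17.9 and 31.1 FPKM to 91.7, 107 and 114 FPKM, but with an SE of 0.44 it did not pass (limma adjusted p = 0.130). Irf1, a factor made in response to interferon gamma, read 16.7, 15.97 and 18.4 FPKM against 24.2, 31.1 and 26.8 FPKM. The tumors were ordered differently here: Palbociclib 1 was the lowest of its arm for 16 of the 24 genes.

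MHC class I and its peptide supply showed 18 of 22 genes above vehicle without overlap (81.8%, against 13.1% of all genes). The median was 0.75, and 0 genes passed the test by limma, with 19 at an unadjusted p under 0.05. B2m, the light chain of class I molecules, read 993, 827 and 1255 FPKM with vehicle and 1610, 1412 and 1960 FPKM with palbociclib (log2 difference 0.70, 95% interval 0.20 to 1.21). H2-D1, a heavy chain, read 422, 429 and 492 FPKM against 651, 706 and 740 FPKM. Neither gene overlapped between the arms. The immunoproteasome subunit Psmb9 (1.22), the transporter Tap1 (1.08) and the loading factor Tapbp (0.75) differed in the same direction, with limma adjusted p-values of 0.107, 0.0617 and 0.0567. The chaperone Pdia3, which also serves general folding, differed by 0.06 with overlap. H2 heavy chain genes are close paralogs, so their separate values are uncertain.

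MHC class II had a median of 2.38 over 7 genes and little separation between arms. H2-Eb1, a class II beta chain of antigen-presenting cells, read 77.9, 10.1 and 4.58 FPKM with vehicle and 51.6, 156 and 169 FPKM with palbociclib, so Vehicle 1 exceeded Palbociclib 1. Cd74, the invariant chain, followed the same order at 110, 15.1 and 8.86 FPKM against 60.1, 195 and 194 FPKM. Of the 7 genes, 2 lay above vehicle without overlap (28.6%, against 13.1% of all genes). By limma 0 passed the test, with 6 at an unadjusted p under 0.05. Without Vehicle 1, or without Palbociclib 1, all 7 lay above vehicle without overlap, when 28.1% and 21.5% of all genes did.

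The targeted pathway was read from 8 genes of cyclin D, CDK4/6 and the RB family, of which 0 passed the test by limma and 3 had an unadjusted p under 0.05. Ccnd1, cyclin D1 (chr7:144929931-144939925, minus strand), read 69.6, 35.3 and 61.4 FPKM with vehicle and 95.4, 101 and 93.7 FPKM with palbociclib, a 1.81-fold difference without overlap (log2 0.86, 95% interval 0.40 to 1.32, limma adjusted p = 0.130). Ccnd2 read 22.9, 13.4 and 24 FPKM against 31.2, 26.1 and 27.6 FPKM (log2 0.53), and Ccnd3 differed by 0.39 with overlap. The kinases themselves overlapped between arms: Cdk4 differed by 0.10 (95% interval -0.16 to 0.35) and Cdk6 by 0.13 (95% interval -0.86 to 1.13). Rb1 read 3.65, 5.51 and 4.12 FPKM against 3.38, 3.97 and 3.02 FPKM, a difference of -0.34 with overlap. Of its relatives, Rbl1 (p107) differed by 0.36 without overlap and Rbl2 (p130) by -0.17 with overlap. RNA levels give no phosphorylation of RB, which is the direct readout of the drug.

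DNA replication genes were slightly higher, not lower, in the palbociclib tumors at collection. All 54 tested members had a positive difference and 37 lay above vehicle without overlap (68.5%, against 13.1% of all genes), with a median of 0.33. Because 0 of the 54 passed the test by limma and 28 had an unadjusted p under 0.05, no single gene is called. Mcm5, a subunit of the replicative helicase whose promoter is printed above, read 64.8, 48.4 and 56.0 FPKM with vehicle and 70.0, 78.4 and 75.7 FPKM with palbociclib (log2 difference 0.41). Orc1, of the origin recognition complex, read 3.77, 3.27 and 3.24 FPKM against 4.16, 4.36 and 4.41 FPKM. Rfc3, of the clamp loader, read 6.35, 5.37 and 5.10 FPKM against 6.96, 7.37 and 8.42 FPKM. These 3 were picked among genes without overlap, and each gap between the arms was small. Cdc6, which loads the helicase, had the largest difference of the list, 0.75, from 3.12 ± 0.776 to 5.21 ± 0.421 FPKM (SD, n = 3).

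Mitotic genes gave the same picture with more overlap. All 49 had a positive difference, with a median of 0.38, and 27 lay above vehicle without overlap (55.1%, against 13.1% of all genes). By limma 0 passed the test, with 19 at an unadjusted p under 0.05. Vehicle 1 was the highest vehicle tumor for 45 of 49, and without it 46 of 49 did not overlap (93.9%, against 28.1% of all genes). After quantile normalization the counts above vehicle without overlap were 17 for mitosis and 29 for replication, against 1025 of all 11255 genes. Plk1, a mitotic kinase, read 26.2, 15.8 and 15.6 FPKM against 30.1, 28.7 and 31.3 FPKM. Mki67, the proliferation antigen, read 62.8, 46.3 and 47.7 FPKM against 62.3, 63.1 and 56.1 FPKM and overlapped.

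Cyclin E and the E2F factors stood with the replication genes. Ccne1, cyclin E1, read 8.94, 4.30 and 6.09 FPKM against 11.01, 11.3 and 11.5 FPKM (log2 difference 0.86, limma adjusted p = 0.148), and the repressor E2f8 read 16.4, 10.9 and 12.7 FPKM against 19.2, 22.1 and 19.2 FPKM (log2 difference 0.61, limma adjusted p = 0.111). Both were separate between arms, and the palbociclib tumors varied less than the vehicle tumors. E2f1 differed by 0.17 with overlap. Of 4 tested CDK inhibitors, 0 passed by limma and 0 were separate. The 1 with an unadjusted p under 0.05 in limma was higher (log2 difference 0.46), and the other 3 had negative differences. Among these 3, Cdkn1a (p21) differed by -0.14 (95% interval -0.57 to 0.28) and Cdkn1b (p27) by -0.69 (95% interval -1.42 to 0.03). Among 20 p53 targets, only Aen (0.49) lay above and only Zmat3 (-0.48) below vehicle without overlap, and the list median was -0.10. That is 5% in each direction, under the 13.1% above and 7.27% below among all genes.

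Far fewer genes fell. Ctgf, also called Ccn2, a matricellular protein and a standard target of the YAP and TGF-beta pathways, read 4.41, 5.65 and 6.61 FPKM with vehicle and 0.998, 0.764 and 0.622 FPKM with palbociclib. The arms were far apart, and Ctgf fell by 2.66 on the log2 scale (SE 0.46, limma adjusted p = 0.0487), a 6.33-fold difference. Nr1d2, which encodes the clock repressor REV-ERB beta (chr14:18204054-18239127, minus strand), read 9.29, 8.29 and 9.13 FPKM against 5.43, 4.73 and 4.12 FPKM. Nr1d2 fell by 0.90 (SE 0.14, 95% interval -1.19 to -0.60, limma adjusted p = 0.0315), again without overlap. In limma 0 genes fell without Vehicle 2, Vehicle 3, Palbociclib 1, Palbociclib 3, Anti-PD-1 2, Combination 1 or Combination 3, with 306 to 607 at an unadjusted p under 0.05 in that direction. The count was 1 without Palbociclib 2 or Anti-PD-1 3, 3 without Vehicle 1, 5 without Combination 2 and 10 without Anti-PD-1 1.

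**Figure D3:**
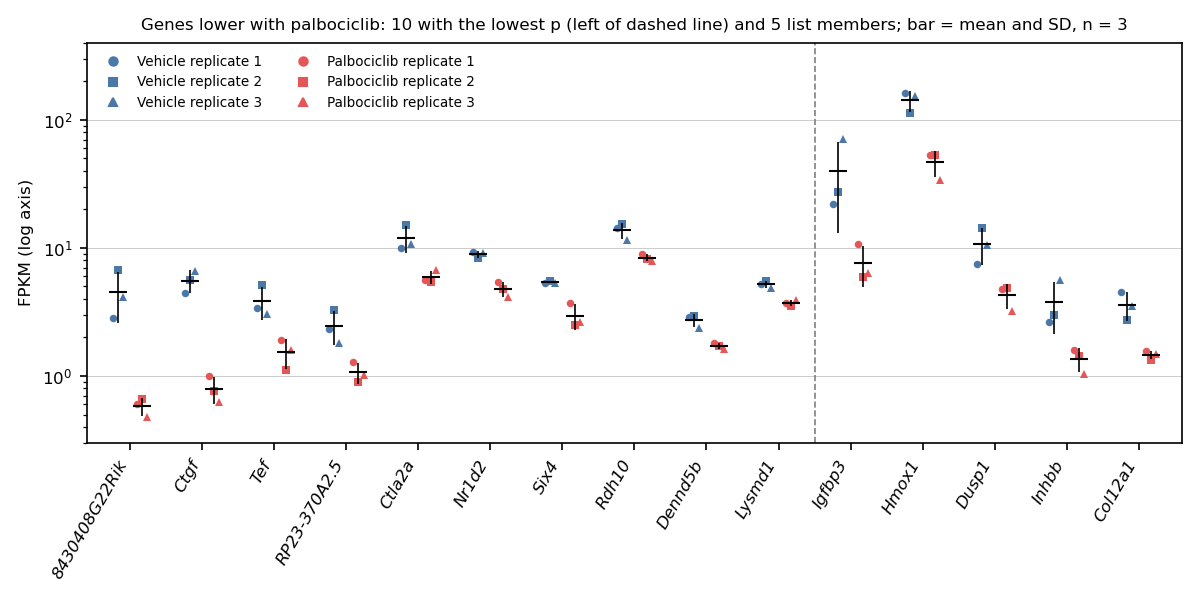
FPKM on a log axis of the 10 genes with the lowest p-values among those below vehicle without overlap, left of the dashed line. Further genes of the lower lists stand to its right. Each point is 1 tumor, and a bar gives the mean and SD of each arm of 3. Ctgf (0.622 to 0.998 FPKM with palbociclib against 4.41 to 6.61 FPKM) and Nr1d2 are the 2 that passed the test.

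The next genes by p-value, taken only from those without overlap between the arms, missed the threshold. 8430408G22Rik (Depp), a target of FOXO factors, read 2.82, 6.67 and 4.10 FPKM with vehicle and 0.608, 0.663 and 0.476 FPKM with palbociclib, a separation as wide as that of Ctgf (log2 difference -2.69, limma adjusted p = 0.0598). Six4, a homeobox factor, read 5.30, 5.50 and 5.36 FPKM against 3.73, 2.48 and 2.65 FPKM (log2 difference -0.87, limma adjusted p = 0.0670). Ctla2a (-0.98), Dennd5b (-0.63), RP23-370A2.5 (-1.12), Lysmd1 (-0.47) and the retinol dehydrogenase Rdh10 (-0.70) had limma adjusted p-values of 0.0672 to 0.0981.

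Clock genes pointed down as a list, and the anti-PD-1 arm was lower than vehicle too. Their mean level was 2.675 ± 0.532 with vehicle, 1.98 ± 0.286 with palbociclib and 2.04 ± 0.301 with anti-PD-1 (log2 scale, SD, n = 3). All 13 tested had a negative difference, with a median of -0.75, and 3 lay below vehicle without overlap (23.1%, against 7.27% of all genes). Besides Nr1d2, these were Tef, an output factor that binds D-box elements, at 3.40, 5.10 and 3.06 FPKM against 1.92, 1.11 and 1.60 FPKM (limma adjusted p = 0.0961), and Per1, a core repressor, at 25.6, 65.6 and 19.6 FPKM against 16.4, 12.9 and 17.02 FPKM. Vehicle 2 was far above the others for Per1, and without it the list median was -0.35 and 2 of the 13 differences were positive. Without Vehicle 1 or Palbociclib 1, 8 of the 13 (61.5%) lay below vehicle without overlap, against 15.8% and 12.8% of all genes, and without Vehicle 3, 5 did (38.5%, against 11.2%). The hours at which tumors were taken are not given in the sources used here, and their part in the clock genes was not tested.

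Genes of TGF-beta, secretory and antioxidant lists held further low values without a call. Igfbp3 read 22.1, 27.0 and 71.0 FPKM against 10.7, 5.88 and 6.35 FPKM, and Inhbb, a subunit of activin B, read 2.64, 3.00 and 5.66 FPKM against 1.61, 1.44 and 1.04 FPKM. Both were separate, with vehicle values that spread widely. Of 13 TGF-beta and activin genes 4 lay below vehicle without overlap (30.8%, against 7.27% of all genes), with a median of -0.29. Without Vehicle 1, 8 did (61.5%, against 15.8%). Of 12 YAP targets, a list made after Ctgf had been seen, 4 lay below without overlap (33.3%, against 7.27% of all genes). Their median was -0.06, so Ctgf was not matched by most of them. Hmox1, heme oxygenase 1, read 161, 112 and 152 FPKM against 53, 52.6 and 34.0 FPKM (log2 difference -1.61, limma adjusted p = 0.162), and the iron store Fth1 differed by -0.75, also without overlap. Of 18 NRF2 targets, these included, 4 lay below vehicle without overlap (22.2%, against 7.27% of all genes), and the list median was -0.23.

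The neutrophil and hypoxia lists had negative medians, and their values depend in part on single vehicle tumors. All 16 neutrophil genes and CXCR2 ligands had negative differences, with a median of -1.56, and Vehicle 3 was the highest of the 6 tumors for all 16. Of the 16, 5 lay below vehicle without overlap (31.2%, against 7.27% of all genes). Without Vehicle 3 the median was -0.74, 4 differences were positive and 5 genes lay below without overlap (31.2%, against 11.2% of all genes). S100a9, a neutrophil calcium-binding protein, read 21.8, 42.4 and 370 FPKM against 20.8, 16.5 and 8.04 FPKM, and the ligand Cxcl1 read 14.9, 38.7 and 85.9 FPKM against 10.7, 14.6 and 4.27 FPKM. Csf3r, a defining receptor of neutrophils, read 2.14, 2.27 and 14.6 FPKM against 2.88, 3.23 and 2.35 FPKM and overlapped. Of 30 hypoxia and glycolysis genes, 29 had a negative difference, with a median of -0.42 that ran from -0.75 to -0.20 when any of the 6 tumors was left out. In all, 1 lay below vehicle without overlap (3.33%, against 7.27% of all genes). Vehicle 1 was the lowest vehicle tumor for all 30, and without it 28 did (93.3%, against 15.8% of all genes). Ddit4, a hypoxia-induced inhibitor of mTORC1, is the gene separate over all 6 tumors, at 39.7, 234 and 115 FPKM against 33.4, 39.7 and 24.7 FPKM. Its arms barely part, at 39.74 FPKM in Vehicle 1 and 39.67 FPKM in Palbociclib 2. With TPM, 0 of the 30 genes lay below without overlap.

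Of 26 macrophage and monocyte genes, 24 had a positive difference, with a median of 0.83, and 0 passed the test by limma. Ly6c2, of inflammatory monocytes, came closest at 1.04, 0.431 and 1.01 FPKM with vehicle and 4.89, 3.61 and 4.29 FPKM with palbociclib (log2 difference 2.31, limma adjusted p = 0.0508). The monocyte receptor Ccr2 read 1.23, 0.684 and 0.794 FPKM against 2.55, 3.18 and 1.75 FPKM, and Fcgr1, the high-affinity IgG receptor, read 11.5, 5.18 and 5.07 FPKM against 21.9, 22.97 and 25.5 FPKM. These 3 genes did not overlap between arms. Retnla, of alternatively activated macrophages and of fat, had the largest difference of the list, 4.78, at 1.404, 0.651 and 0.165 FPKM against 40.5, 10.6 and 14.3 FPKM (SE 1.26), and its highest value was in the tumor rich in fat genes. Of the 26 genes, 6 lay above vehicle without overlap (23.1%, against 13.1% of all genes). Without Vehicle 1, 18 did so (69.2%, against 28.1%). Without Vehicle 3 the median was 0.49. Adgre1, which encodes the macrophage marker F4/80, overlapped at 30.6, 12.1 and 5.80 FPKM against 20.96, 42.3 and 28.5 FPKM.

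Complement, dendritic cell and lysosomal genes held smaller groups of separate genes. Of 15 complement genes, all with a positive difference and a median of 1.05, 4 lay above vehicle without overlap (26.7%, against 13.1% of all genes). Without Vehicle 1, 11 did so (73.3%, against 28.1%). Cfb, factor B of the alternative pathway, read 7.14, 2.76 and 1.397 FPKM against 14.4, 9.92 and 12.2 FPKM, and the anaphylatoxin receptor C3ar1 read 13.5, 7.58 and 5.22 FPKM against 21.4, 24.6 and 17.6 FPKM. Vehicle 1 was the highest vehicle tumor for both. Of 7 dendritic cell genes 4 lay above (57.1%, against 13.1% of all genes). Among them was the chemokine Ccl22 at 2.35, 2.44 and 0.414 FPKM against 3.77, 4.33 and 3.55 FPKM. Of 24 cathepsin and lysosomal genes 9 lay above (37.5%, against 13.1% of all genes) and 1 below (4.17%, against 7.27%). They were led by Ctss, the cathepsin that trims the invariant chain, at 115, 97.8 and 44.3 FPKM against 162, 259 and 160 FPKM. None of these genes passed the test by limma, and 5, 3 and 2 of the 3 lists were higher at an unadjusted p under 0.05.

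T cell genes were low and only 7 of 23 passed the filter. Trac, the constant chain of the alpha receptor, read 1.36, 1.06 and 0.710 FPKM against 2.60, 2.58 and 4.17 FPKM without overlap (log2 difference 1.499, limma adjusted p = 0.195), while Cd3e overlapped at 1.30, 0.226 and 0.412 FPKM against 1.20, 1.26 and 2.14 FPKM. The list median of 1.36 was 0.76 with a pseudocount of 1. Gzmb, granzyme B, read 9.52, 26.7 and 24.9 FPKM against 27.2, 44.2 and 31.5 FPKM. Its arms were separate by a small margin. Cxcl10, the interferon-induced chemokine that attracts T cells, stood apart more clearly at 9.23, 7.87 and 9.87 FPKM against 29.9, 18.9 and 45.8 FPKM (log2 difference 1.71, limma adjusted p = 0.0567).

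Icam1, the ligand of the integrin LFA-1 (chr9:21015985-21028817, plus strand), read 4.68, 2.68 and 2.06 FPKM with vehicle and 4.10, 8.39 and 6.44 FPKM with palbociclib. Vehicle 1 exceeded Palbociclib 1, and the difference of 1.01 had a 95% interval of -0.16 to 2.18 (limma adjusted p = 0.379). Its leukocyte partner was measured by Itgal, at 1.08, 0.681 and 1.33 FPKM against 1.60, 2.33 and 2.04 FPKM, and Itgb2, at 20.02, 13.3 and 17.6 FPKM against 29.2, 33.8 and 26.2 FPKM, both without overlap and without a call. Cd274, which encodes PD-L1 (chr19:29367455-29388095, plus strand), read 7.95, 9.92 and 13.6 FPKM against 16.1, 16.95 and 15.4 FPKM. The palbociclib values were close together and above all vehicle values, with a difference of 0.65 (95% interval 0.03 to 1.28, limma adjusted p = 0.324). Lgals9, a ligand of the checkpoint receptor TIM-3 and itself induced by interferon, read 19.5, 21.4 and 18.8 FPKM against 41.1, 34.6 and 55.8 FPKM (log2 difference 1.11, limma adjusted p = 0.0567).

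Housekeeping programs stayed near the median of all genes. The medians were 0.10 for 45 nuclear-encoded oxidative phosphorylation genes, -0.14 for 32 ribosomal protein genes, 0.13 for 23 cholesterol synthesis genes and -0.02 for 21 genes of the LKB1 complex, AMPK and the SIK kinases. None of these genes passed the test by limma, and 4, 6, 1 and 2 of them had an unadjusted p under 0.05 in either direction. Among all 11255 genes, 1120 were higher and 562 lower at that limit. Among RAS-MAPK output genes, 0 of 15 were separate between arms. Endothelial genes had a median of -0.29, with Cdh5, Pecam1 and Ednrb below vehicle without overlap (18.8%, against 7.27% of all genes). In both Cdh5 and Pecam1 Vehicle 3 was the highest tumor. The 29 collagen and fibroblast genes had a median of -0.11, with 4 below (13.8%, against 7.27% of all genes).

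A last comparison asked whether the palbociclib difference was of the same size in mice that also received anti-PD-1, measured as the combination minus anti-PD-1. In that comparison 1438 genes (12.8%) were higher without overlap. For the 45 type I interferon-stimulated genes its median was 0.09, and 6 lay above without overlap, against a median of 1.21 and 41 without anti-PD-1. The difference between both differences (an interaction term) had an unadjusted p under 0.05 for 36 of these 45 genes, and for 6.02% of all genes. At an adjusted p under 0.05 it was called for 2 genes (0.0178%), of which Lgals3bp is 1 (interaction -1.90, SE 0.22, limma adjusted p = 0.0314). Lgals3bp was 22.6 ± 3.24 FPKM with vehicle, 80.7 ± 14.4 FPKM with palbociclib, 46.1 ± 2.44 FPKM with anti-PD-1 and 44.1 ± 6.52 FPKM with the combination (SD, n = 3). The anti-PD-1 tumors thus lay between both arms, and the combination tumors did not exceed them.

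Among the other lists, the interaction had an unadjusted p under 0.05 for 1 of 24 interferon gamma genes, 0 of 22 MHC class I genes, 0 of 7 MHC class II genes, 2 of 54 replication genes and 1 of 49 mitotic genes. It did for 10 of 11 HIN-200 genes, a list made after values were seen, 2 of 13 adhesion genes, 1 of 15 checkpoint genes and 0 of 8 cytotoxic genes. The medians without and with anti-PD-1 were 1.68 and 1.11 for interferon gamma genes, 0.75 and 0.63 for MHC class I, 2.38 and 3.30 for MHC class II, and 0.33 and 0.17 for replication. They were 1.29 and 0.11 for HIN-200, 0.65 and 0.02 for adhesion, 0.45 and 0.06 for checkpoint, and 0.81 and 0.22 for cytotoxic genes. Combination 2 was the lowest combination tumor for adhesion, checkpoint and cytotoxic genes, as for interferon gamma and MHC genes. Mean log2 levels in Combination 1, 2 and 3 were 2.89, 2.04 and 2.87 for adhesion and 2.45, 1.69 and 2.55 for checkpoint genes. For cytotoxic genes they were 3.18, 2.28 and 3.37. In Palbociclib 1, 2 and 3 the adhesion levels were 2.85, 2.92 and 2.90. Gbp2 illustrates the interferon gamma group, with a difference of 1.84 without and 1.73 with anti-PD-1, while Isg15, at 1.78 and 0.09, illustrates the type I group. The pair of genes that fell, chosen on the comparison without anti-PD-1, measured 3.67 ± 2.84 FPKM with anti-PD-1 and 0.822 ± 0.195 FPKM with the combination for Ctgf, and 5.402 ± 0.440 FPKM and 4.10 ± 0.638 FPKM for Nr1d2 (SD, n = 3). The mean level of the type I list, lowest in its arm in Palbociclib 2 at 3.94, was 3.54, 3.69 and 3.76 in the combination tumors.

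**Figure D4:**
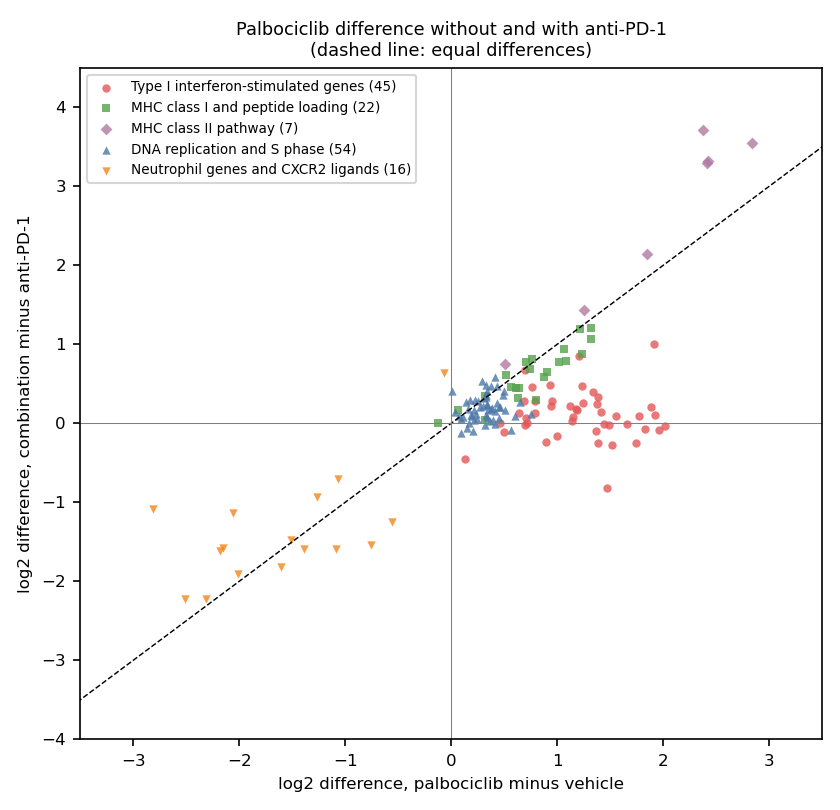
Each point is 1 gene of 5 lists, with the difference between palbociclib and vehicle on the x axis and between the combination and anti-PD-1 on the y axis (both log2(FPKM + 0.1)), and the dashed line marks equal differences. Type I interferon-stimulated genes lie right of 0 and near the horizontal axis (medians 1.21 and 0.09), and MHC class I genes lie along the dashed line (0.75 and 0.63).

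**Figure D5:**
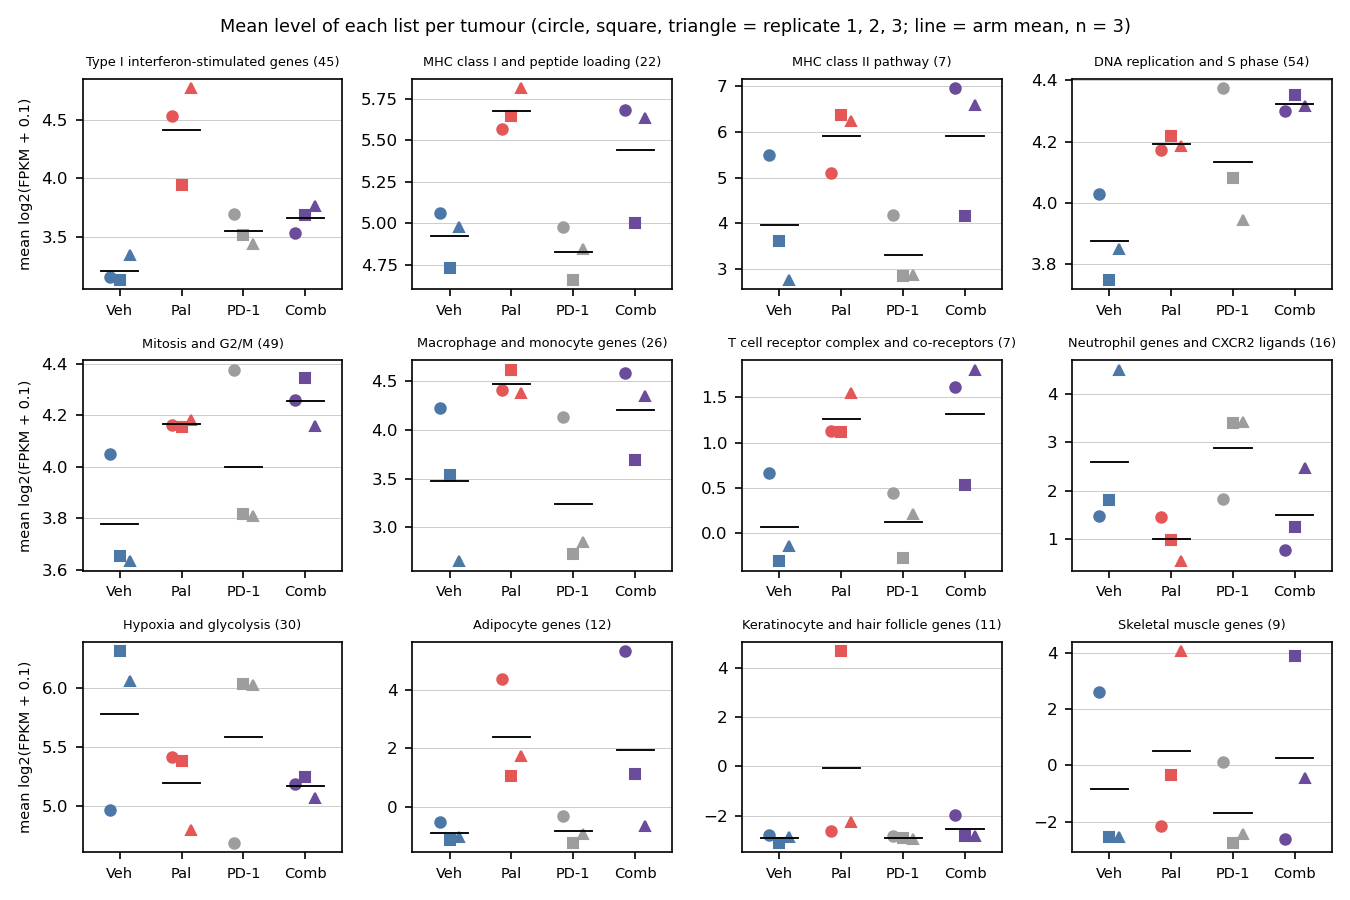
Mean log2(FPKM + 0.1) of 12 lists in each tumor by arm (vehicle, palbociclib, anti-PD-1, combination), with circle, square and triangle for replicates 1, 2 and 3 and a line for the mean of 3. Interferon-stimulated genes stand at 4.42 ± 0.427 with palbociclib and 3.66 ± 0.115 with the combination, the keratinocyte list is high in Palbociclib 2 alone, and fat genes stand above vehicle in all 3 palbociclib tumors.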

How the data were processed

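Bulk RNA-sequencing of 12 tumors was used, 3 per arm, with the arm taken from the treatment given in the labels. The authors deposited 1 table per tumor of FPKM values for 34745 entries, and no counts were used. HISAT2 and GRCm38 (mm10) are named in the submitters' processing notes, and the counting tool and annotation are not given in the sources used here. Of the entries, 67 repeated symbols were dropped, keeping the entry with the highest mean. Positions come from GENCODE M21 on GRCm38, and promoters from RefSeq (GRCm38.p6). FPKM hides how many fragments lie behind a value, so depth was estimated from the steps of low values, and low genes carry counting error that the SE includes only as spread.

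Genes averaging 1 FPKM or more in the 6 tumors were fitted in limma 3.58.1 (R 4.3.3, eBayes with a trend) as log2(FPKM + 0.1), with 1 mean per arm over all 12 tumors (8 residual degrees of freedom), no covariates, Benjamini-Hochberg adjustment and a threshold of 0.05. The fit was tested on simulated data. Named genes are the 12 largest called higher and the 10 lowest p-values among lower genes without overlap. They include Stk11, Icam1, Cd274, the cyclin D, CDK4/6 and RB genes, and per list the called, 4 most abundant and 4 most different members. Further genes were named after their values were seen. Members and lists were chosen with earlier results of these data known. Alternatives were pseudocounts of 1 and 0.01, filters of 0.1, 5 or none, TPM, quantile normalization, no trend, the 6 tumors alone, a replicate block and each tumor left out. Tables were handled in Python 3.11.15 with pandas 2.3.3 and numpy 2.4.6, and figures were drawn with matplotlib 3.10.9.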

Additional observations from a re-analysis of the deposited data

Results flagged for a closer look

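For 2 genes the palbociclib difference was not the same with and without anti-PD-1 by the interaction term. Lgals3bp had an interaction of -1.90 on the log2 scale (limma adjusted p = 0.0314, range over alternatives 0.0171 to 0.171), the difference being 1.83 without and -0.07 with anti-PD-1. Ccdc127, on chromosome 13, had an interaction of -1.21 (limma adjusted p = 0.0314, range over alternatives 0.0282 to 0.171). It measured 6.41 ± 0.692 FPKM with vehicle and 6.54 ± 0.427 FPKM with palbociclib (SD, n = 3), so palbociclib alone left it within the spread, while it was 6.32 ± 0.309 FPKM with anti-PD-1 and 2.73 ± 0.206 FPKM with the combination.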

How the results depend on the processing

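All counts here are genes at an adjusted p under 0.05. Higher genes, 27 as reported, numbered 48 with TPM, 52 with a replicate block, 1 with the 6 tumors alone and 1 to 56 with 1 tumor left out. Lower genes, 2 as reported, numbered 1 with a pseudocount of 1, with filters of 0.1 or 5 and with the 6 tumors alone, 7 with no filter, 5 with quantile normalization and 0 to 10 with 1 tumor left out. Genes with a different palbociclib difference under anti-PD-1, 2 as reported, numbered 0 with a filter of 0.1, 1 with TPM, 0 with a replicate block and 0 to 2 with 1 tumor left out. The count of higher genes stayed between 18 and 30 under the other pseudocounts, filters, quantile normalization and no trend, with 25 of the 29 genes shared under quantile normalization. Same-numbered tumors did not deviate together (correlations -0.228, -0.0610 and -0.256), so the numbers pair nothing and the block shares only a number.

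List medians moved as follows. With a pseudocount of 1 they were 1.28 for interferon gamma, 0.76 for T cell, 0.27 for checkpoint and 0.31 for costimulatory genes. With a filter of 5 they were 0.36 for cyclin D, CDK4/6 and RB, 0.0404 for checkpoint, -0.24 for costimulatory, -0.0566 for NRF2 and 0.15 for secretory genes. With no filter they were 0.17 for CDK inhibitors, 0.18 for B cell and 0.64 for costimulatory genes. Quantile normalization gave 0.25 for checkpoint, 0.36 for costimulatory, 0.45 for adhesion, -0.30 for NRF2 and -0.11 for LKB1 genes, and turned the unfolded protein response from 0.04 to -0.01. With 1 tumor left out the medians ran from 0.0921 to 0.19 for sensing, 0.92 to 1.70 for T cell, 0.38 to 1.03 for cytotoxic, 0.25 to 0.62 for checkpoint, 0.0534 to 0.68 for costimulatory, -0.57 to -0.18 for endothelial, -0.22 to -0.10 for NRF2, -0.11 to 0.0145 for LKB1 and 0.62 to 1.41 for complement genes. With the tested members kept fixed, the medians without Vehicle 2 were 0.44 for adhesion, 1.28 for interferon gamma and -0.26 for YAP genes. Most other list medians moved by less than their spread. The causes were not tested. With 3 tumors per arm and FPKM in place of counts, small differences of low genes were not resolvable.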

Other observations

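Mast cell protease genes, picked after their values were seen, varied between tumors of both arms. Cma1, mast cell chymase, read 6.67, 0.362 and 0.0459 FPKM with vehicle and 4.36, 18.3 and 30.3 FPKM with palbociclib, and Cpa3, carboxypeptidase A3, read 5.15, 0.214 and 0.0650 FPKM against 2.48, 9 and 19.6 FPKM. Vehicle 1 lay above Palbociclib 1 for both genes. HIN-200 genes, a DNA-binding interferon-induced family, were listed after values were seen. Of 11, 10 lay above vehicle without overlap (90.9%, against 13.1% of all genes), with a median of 1.29. Ifi203 passed the test, and close family members may share reads.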
